A study of Mus musculus with 6 samples.

Results

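Eicosanoids are signalling lipids made from arachidonic acid, and this account follows 10 genes that make, break down or sense them in the mouse colon. The genes are Ptgs1, Ptgs2, Ptges, Hpgd and Ptger4 of the prostaglandin branch, Alox5, Alox5ap and Ltc4s of the leukotriene branch, and the lipoxygenases Alox12 and Alox15. They were taken by symbol, and all 10 were found, on 1 row each, among the 54532 rows of the deposited table. The rule that picks them goes by symbol alone, though the list was drawn up with earlier results of these data known.

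The RNA came from colon, with 3 libraries carrying the label WT and 3 the label Il10 knockout, all from C57BL/6 mice aged 56 days. The Il10 knockout libraries carry the genotype IL10-/-, a loss of interleukin 10, and no treatment is labelled in either group. The colons were frozen whole, so the RNA comes from epithelium, immune cells, muscle and nerve together, and whether colitis was present is not labelled. Separate mice are not named as the origin of the replicates, so each p-value refers to library-to-library spread, which may be technical. The question addressed is the effect of the genotype on colon RNA. Values are FPKM, fragments scaled to gene length and to a library size set by the authors, so levels of different genes can be set side by side.

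Phospholipase A2 enzymes release arachidonic acid from membranes. The cyclooxygenases Ptgs1 and Ptgs2 turn it into prostaglandin H2, from which terminal synthases such as Ptges make prostaglandin E2. Hpgd inactivates prostaglandin E2, and Ptger4 is one of its receptors on epithelial and immune cells. In the other branch Alox5, helped by its activating protein Alox5ap, makes leukotriene A4, which Lta4h converts to the neutrophil attractant leukotriene B4 and Ltc4s to leukotriene C4. Prostaglandin E2 is known for supporting repair of the gut epithelium, and leukotriene B4 for recruiting neutrophils.

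Several features of the libraries touch what follows. Reads recovered from the FPKM values totalled 13107941 to 15797928 per library. The mitochondrial share of reads was 43.4% for WT library 3 against 8.61% to 22.0% in the other libraries. The summed FPKM of 10 smooth muscle markers was 8929 in WT library 3 and 177 in the library labelled knockout 2, against 922 to 1467 in the remaining libraries. Il10 itself had FPKM values of 0.757, 0.173 and 0.177 for WT 1, 2 and 3, against 13.8, 10.6 and 14.5 for knockout 1, 2 and 3. Its RNA was thus more abundant where a loss is labelled, so "WT" and "knockout" below mean the library labelled so. Which part of Il10 is deleted is not given in the sources used here. The epithelial markers Epcam, Cdh1, Krt8, Krt20 and Vil1, with 6 others, were read in every library and summed to between 3046 and 44991 FPKM. Gut epithelium was thus present in each library, and that it is colon rests on the label.

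Ptges was the 1 gene of the 10 whose groups did not overlap, and none of the 10 passed the test over all genes. Ptges was higher in the libraries labelled knockout, the ranges of Ptgs2, Alox5ap and Alox15 leaned the same way with overlap, and those of Ptgs1, Hpgd, Ptger4, Ltc4s and Alox5 leaned lower with overlap. Differences were tested with limma on log2(FPKM + 1) over 12668 genes, those whose FPKM averaged 1 or more, adjusted by Benjamini-Hochberg over all of them at a threshold of 0.05. A positive log2 fold change means a higher knockout value, and with the added 1 it is smaller than the true change where levels are low. Of the 10 genes 7 passed the filter on low values, with 0 called in either direction by limma and 1 at an unadjusted p under 0.05. Voom on the recovered reads also called 0. Over all genes tested, 0.182% were called higher and 0% lower, and 6.14% were higher and 4.03% lower at an unadjusted p under 0.05. Groups did not overlap for 8.84% of all genes with the knockout side above and 7.89% with it below, against 1 and 0 of the 7. The median log2 fold change of the 7 was -0.30, beside 0.04 over all genes tested. Exact two-sided permutation tests of 3 against 3 libraries can give no p under 0.1.

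**Figure D1:**
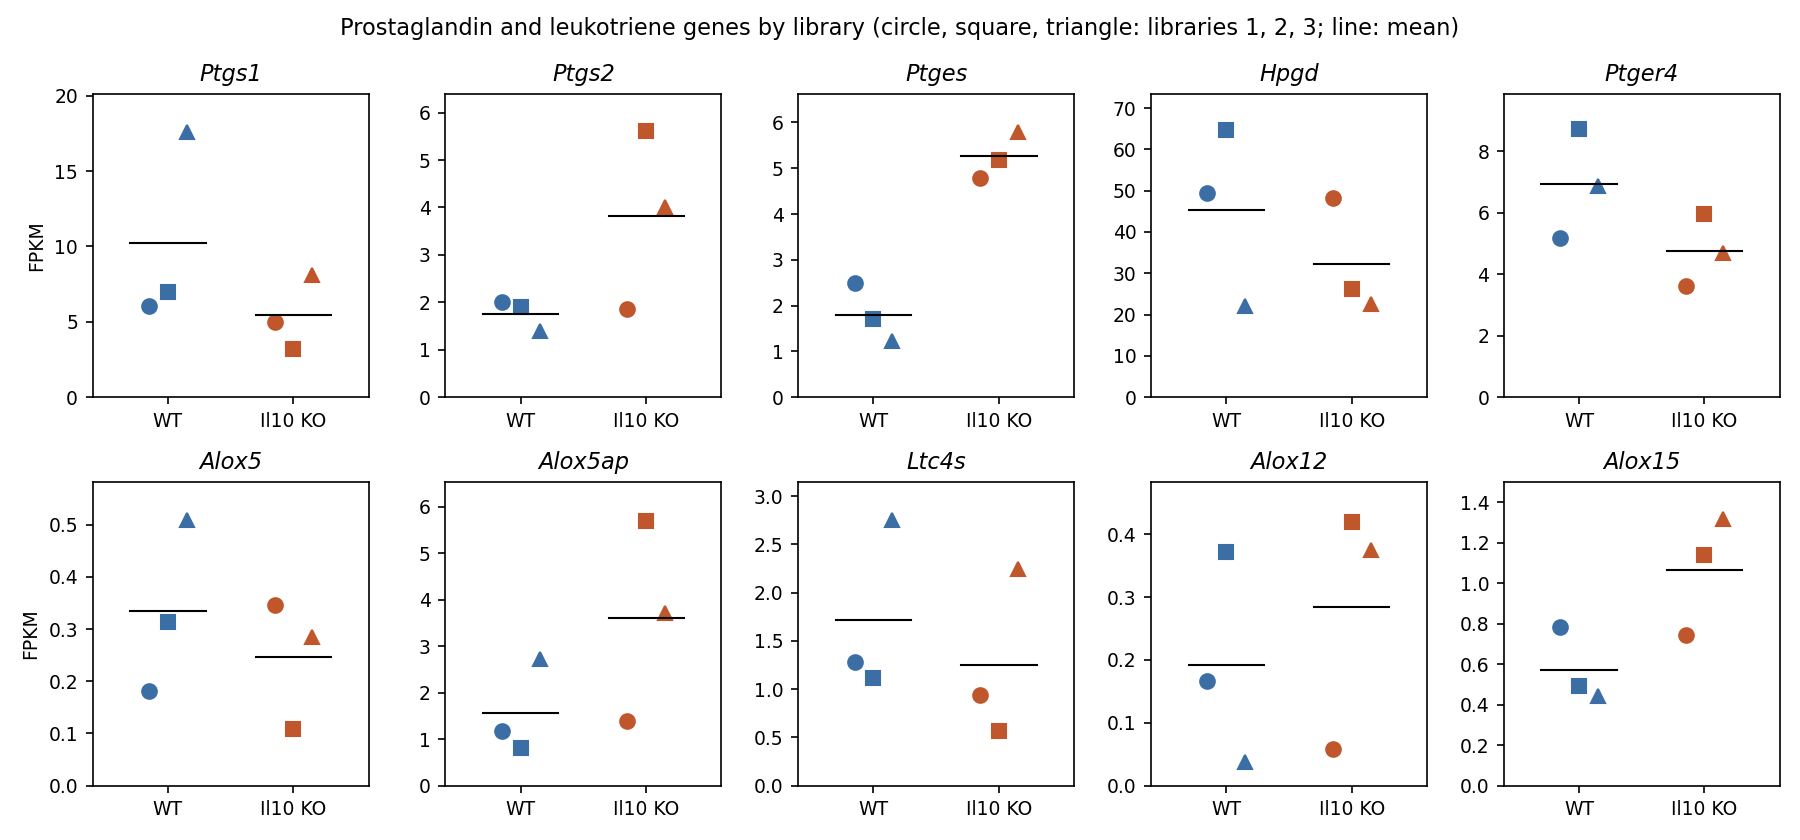
FPKM of each of the 10 genes (y axis, starting at 0, with its own scale per gene) in the 3 libraries labelled WT and the 3 labelled Il10 knockout (x axis), with 1 point per library and a line at the group mean. Ptges is the gene whose 3 knockout points, 4.78 to 5.8 FPKM, all lie above the WT points, 1.22 to 2.49 FPKM.

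Ptges encodes the inducible, membrane-bound prostaglandin E synthase (ENSMUSG00000050737; GRCm38 chromosome 2, 30889471 to 30929863, minus strand, 3 exons). Its FPKM values were 2.49, 1.7 and 1.22 for WT 1, 2 and 3, against 4.78, 5.19 and 5.8 for knockout 1, 2 and 3. Every knockout value thus exceeded every WT value, and the spread within each group was small beside the gap. The means were 1.80 ± 0.642 and 5.26 ± 0.517 FPKM (SD, n = 3), a ratio of 2.92, and the values rested on 308 and 930 reads. This gave a log2 fold change of 1.18 (SE 0.23), with an unadjusted p of 0.0016 and an adjusted p of 0.162 in limma, so Ptges did not pass the threshold. In the exact permutation test p was 0.1. In bulk colon, more cells that make an RNA and more of that RNA per cell cannot be told apart, here or for any gene below. A fit with a weight per library gave Ptges a log2 fold change of 0.96 and an adjusted p of 0.0491, with weights of 2.76, 0.198 and 0.465 for WT 1, 2 and 3; over all alternatives the adjusted p ran from 0.0491 to 0.723. The predicted gene Gm13400 lies in the Ptges span on the same strand.

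The cyclooxygenases make the step before Ptges, and their 2 genes leaned in opposite directions. Ptgs2, the inducible cyclooxygenase (ENSMUSG00000032487; chromosome 1, 150100031 to 150108227, plus strand, 10 exons), had 2, 1.9 and 1.39 FPKM in WT 1, 2 and 3. The knockout values were 1.85, 5.61 and 4.02 FPKM. Knockout libraries 2 and 3 were above all WT libraries, while knockout library 1 lay within the WT range. Its log2 fold change, 0.73 (SE 0.34, adjusted p = 0.519 in limma), became 1.07 without knockout library 1 and 0.46 without knockout library 2. Ptgs1, the cyclooxygenase usually present in unstimulated tissue (ENSMUSG00000047250; chromosome 2, 36230426 to 36252272, plus strand, 11 exons), had 6.06, 7 and 17.6 FPKM in WT 1, 2 and 3 and 5.02, 3.18 and 8.12 FPKM in knockout 1, 2 and 3. WT library 3 was the highest and knockout library 2 the lowest, the same libraries that held the most and the least smooth muscle marker RNA. The same 2 libraries also held the most and the least summed marker RNA of enteric neurons and glia (257 and 12.5 FPKM) and of tuft cells (13.2 and 3.19 FPKM). For Ptgs1 the log2 fold change was -0.73 (SE 0.46, adjusted p = 0.64 in limma), and -0.30 without WT library 3. The predicted gene Gm43621 overlaps it on the opposite strand.

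Within each library the Ptgs2 share of the 2 cyclooxygenases was larger in the libraries labelled knockout. Ptgs2 made up 24.8%, 21.4% and 7.32% of the summed Ptgs1 and Ptgs2 FPKM for WT 1, 2 and 3, against 26.9%, 63.8% and 33.1% for knockout 1, 2 and 3. The groups did not overlap, but knockout library 1 and WT library 1 were close. Ptgs2 exceeded Ptgs1 in 1 library, knockout library 2. The summed level of both genes was 12 ± 6.05 FPKM in WT and 9.26 ± 2.67 FPKM in knockout (SD, n = 3), with overlapping groups. On the log2 scale Ptgs2 minus Ptgs1 was -1.89 ± 0.94 in WT and -0.43 ± 0.95 in knockout (SD, n = 3), a difference of 1.46 with p = 0.1 in the exact two-sided permutation test. Leaving out WT library 3 or another single library, or changing the scaling or pseudocount, kept this difference between 0.92 and 1.83.

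The DNA just before the annotated starts of Ptgs1, Ptgs2 and Ptges, the steps from arachidonic acid to prostaglandin E2, is shown next. Ptgs1 leaned lower and the other genes higher in knockout, and none passed the adjusted threshold. Each line gives 200 bases of GRCm38.p6 from RefSeq, 5′ to 3′ on the gene's strand, ending at the base before the RefSeq start. Capitals mark matches on either strand to the GC box GGGCGG, the TATA box TATAAA, the E-box CACGTG, the CRE half-site TGACGT, the C/EBP palindrome TTGCGCAA and the CCAAT box. A promoter window was found for 8 of the 10 genes, all but Alox5ap and Alox15. The RefSeq start of Ptges lies inside the longer gene that the deposited table draws.
Ptgs1, chr2:36230226-36230425, plus strand: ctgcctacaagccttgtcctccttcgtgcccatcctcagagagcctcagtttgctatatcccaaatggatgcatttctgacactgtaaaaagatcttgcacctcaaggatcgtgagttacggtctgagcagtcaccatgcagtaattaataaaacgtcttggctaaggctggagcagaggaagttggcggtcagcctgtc
Ptgs2, chr1:150099831-150100030, plus strand: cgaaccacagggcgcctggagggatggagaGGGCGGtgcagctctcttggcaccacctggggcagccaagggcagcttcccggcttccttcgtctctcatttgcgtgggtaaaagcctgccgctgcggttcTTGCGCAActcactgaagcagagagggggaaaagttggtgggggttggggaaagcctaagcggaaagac
Ptges, chr2:30903298-30903497, minus strand: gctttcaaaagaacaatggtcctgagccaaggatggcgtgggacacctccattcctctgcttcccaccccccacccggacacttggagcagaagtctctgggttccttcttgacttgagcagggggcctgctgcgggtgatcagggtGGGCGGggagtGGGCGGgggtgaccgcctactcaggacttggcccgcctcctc

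The 3 windows held different sets of motif matches, with the GC box shared by Ptgs2 and Ptges. Ptgs1 held none of the 6 motifs in its whole window of 300 bases, 250 before and 50 after the start. Ptges held 2 GC boxes, which 35.7% of 32851 RefSeq promoter windows of that length hold at least once. Ptgs2 held a GC box too, and a C/EBP palindrome, which is present in 0.183% of the windows. Just past its annotated start Ptgs2 also held a CRE half-site (7.51% of windows) that overlaps an E-box (7.15%), both in capitals in this stretch of 30 bases.
Ptgs2, chr1:150100033-150100062, plus strand: agtcaccactACGTCACGTGgagtccgctt
These are matches of letters, and binding was not measured. The Ptgs2 transcript differs from the others at its other end as well. Its 3′ untranslated region of 2445 bases in GENCODE M21 holds 14 copies of ATTTA, the core of the AU-rich elements that shorten the life of many inducible mRNAs. Of 21042 genes with a 3′ untranslated region, 2.56% hold as many, while those of Ptgs1 (921 bases) and Ptges (3106 bases) hold 0. This share compares counts and not densities, and the median region of these genes has 800 bases. Per kilobase Ptgs2 holds 5.73 copies, beside 4.77 for Hpgd and Alox5ap and 4.06 for Ptger4. A stretch of 30 bases near the start of the Ptgs2 region has 4 of the 14 copies, in capitals, 3 of which overlap.
Ptgs2, bases 12 to 41 of the 3′ untranslated region: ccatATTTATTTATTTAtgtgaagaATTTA

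Hpgd, the dehydrogenase that inactivates prostaglandin E2, had the highest level of the 10 genes in both groups (ENSMUSG00000031613; chromosome 8, 56294585 to 56321043, plus strand, 7 exons). WT 1, 2 and 3 held 49.4, 64.7 and 22 FPKM of it, knockout 1, 2 and 3 held 48.2, 26.1 and 22.5. WT library 3 was the lowest of all 6, so the groups overlapped. Its log2 fold change was -0.43 (SE 0.49, adjusted p = 0.816 in limma), -0.11 without WT library 2 and -0.87 (adjusted p = 0.727) without WT library 3. WT library 3 had the lowest summed level of the 11 epithelial markers, 3046 FPKM against 6027 and 44991 in WT libraries 1 and 2. Car1 alone made 31511 of the 44991 FPKM, and it ran from 117 to 31511 FPKM over the libraries. In the libraries labelled knockout the sum of the 11 markers was 9957 to 19571 FPKM, and 9 of the 11 had higher values there. The part of epithelial content in the Hpgd values was not tested.

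Set against each other within a library, Hpgd exceeded Ptges by less in the libraries labelled knockout. The FPKM ratio of Hpgd to Ptges was 19.9, 38.1 and 18 for WT 1, 2 and 3, against 10.1, 5.03 and 3.88 for knockout 1, 2 and 3. The groups did not overlap, and every library still held more Hpgd than Ptges RNA per length. On the log2 scale Ptges minus Hpgd was -3.94 ± 0.62 in WT and -2.34 ± 0.67 in knockout (SD, n = 3), a difference of 1.61 with p = 0.1 in the exact two-sided permutation test. Over left-out libraries, scalings and pseudocounts the difference lay between 1.28 and 2.03. In all, 3 log2 differences between a pair of the genes were computed, so a p of 0.1 gives no call.

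**Figure D2:**
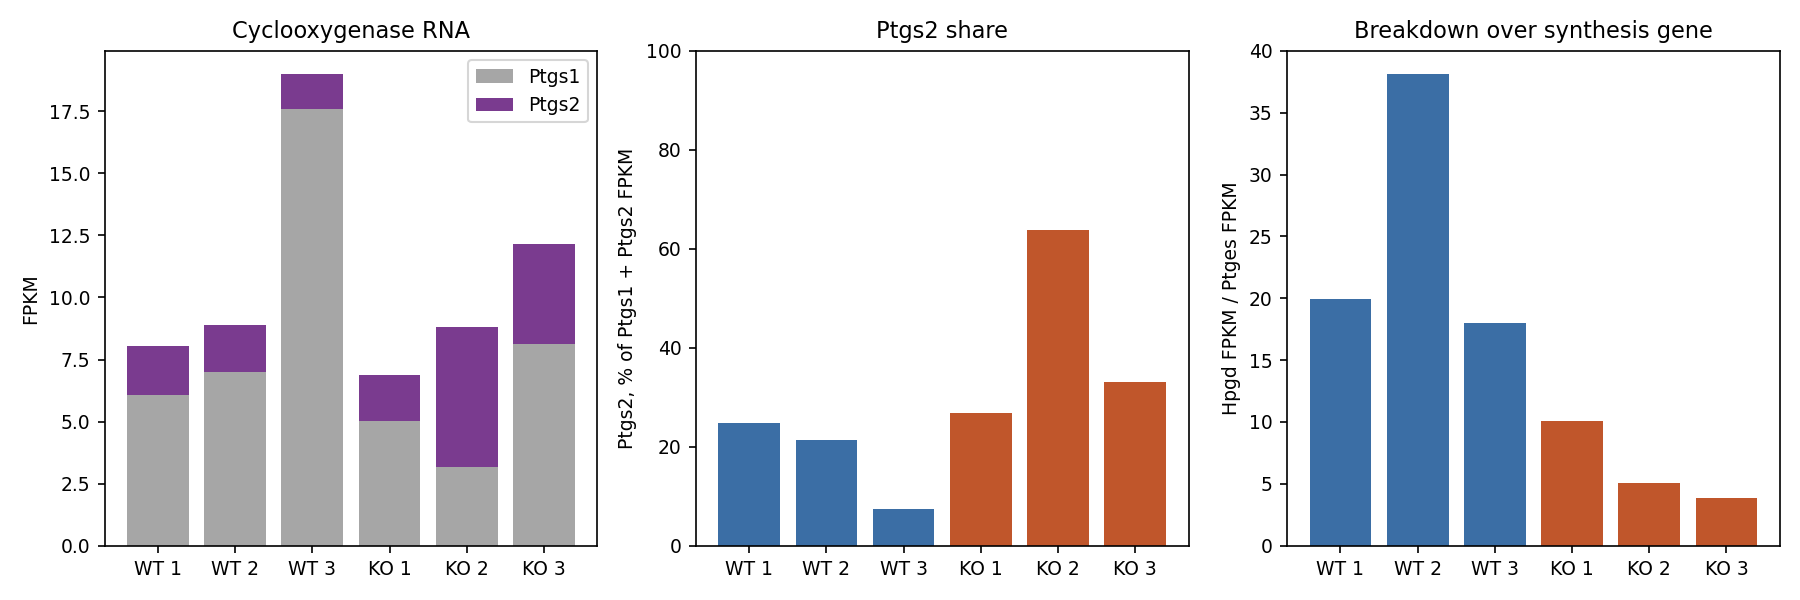
Left, FPKM of Ptgs1 and Ptgs2 stacked for each library. Middle, the Ptgs2 share in percent. Right, the FPKM ratio of Hpgd to Ptges. WT libraries are blue and those labelled knockout orange, with 1 bar per library. The Ptgs2 share is 7.32% to 24.8% in WT and 26.9% to 63.8% in knockout, and the Hpgd to Ptges ratio is 18 to 38.1 against 3.88 to 10.1.

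Ptger4 encodes EP4, a receptor for prostaglandin E2 (ENSMUSG00000039942; chromosome 15, 5206661 to 5244187, minus strand, 3 exons). WT 1, 2 and 3 held 5.17, 8.73 and 6.88 FPKM, and knockout 1, 2 and 3 held 3.61, 5.96 and 4.68 FPKM. The groups overlapped through WT library 1 and knockout library 2. The difference was -0.46 on the log2 scale (SE 0.27, adjusted p = 0.612 in limma). Ttc33 and Gm15937 overlap Ptger4 on the opposite strand, and with no strand setting given, reads from the overlap cannot be told apart. By mean FPKM Ptger4 was the highest of the 9 prostanoid receptor genes read here, Tbxa2r being next.

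The leukotriene genes were low, and the 3 of them did not move as one. Alox5, the 5-lipoxygenase that starts the branch (ENSMUSG00000025701; chromosome 6, 116410077 to 116461178, minus strand, 14 exons), had 0.181, 0.314 and 0.509 FPKM in WT 1, 2 and 3. In knockout 1, 2 and 3 it had 0.347, 0.108 and 0.284 FPKM. These values rested on 7 to 27 reads per library, and the groups overlapped. Alox5 did not pass the filter. With genes down to a mean FPKM of 0.1 included, its log2 fold change was -0.10 (SE 0.16, adjusted p = 0.854 in limma).

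Alox5ap, the membrane protein that presents arachidonic acid to 5-lipoxygenase (ENSMUSG00000060063; chromosome 5, 149264767 to 149288153, plus strand, 5 exons), had 1.18, 0.8 and 2.72 FPKM in WT 1, 2 and 3 and 1.39, 5.69 and 3.71 FPKM in knockout 1, 2 and 3. Knockout libraries 2 and 3 were above every WT library, and knockout library 1 was between WT libraries 1 and 3. For Alox5ap the log2 fold change was 0.79 (SE 0.45, adjusted p = 0.604 in limma), 1.20 without knockout library 1 and 0.46 without knockout library 2. Alox5ap exceeded Alox5 in each library, 2.55 to 6.51 times in WT and 4.02 to 52.5 times in knockout, where the highest ratio rested on 7 Alox5 reads. On the log2 scale Alox5ap minus Alox5 was 0.88 ± 0.42 in WT and 1.77 ± 0.89 in knockout (SD, n = 3), with p = 0.3 in the exact permutation test.

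Ltc4s, which joins glutathione to leukotriene A4 (ENSMUSG00000020377; chromosome 11, 50236461 to 50238616, minus strand, 5 exons), had 1.28, 1.12 and 2.75 FPKM in WT and 0.938, 0.564 and 2.24 FPKM in knockout. WT library 3 and knockout library 3 were the highest of their groups, and the groups overlapped. Its log2 fold change was -0.30 (SE 0.37, adjusted p = 0.836 in limma) and -0.04 without WT library 3, on 9 to 37 reads per library. Gm26542 overlaps Ltc4s, and Gm19719 overlaps Alox5ap, on the opposite strand.

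The lipoxygenases Alox12 and Alox15 lie 88798 bases apart on chromosome 11, both on the minus strand with 14 exons, and both were below the filter. Alox12, the 12-lipoxygenase of platelets (ENSMUSG00000000320; 70241457 to 70255353), was at 0.167, 0.371 and 0.0379 FPKM in WT and at 0.0582, 0.420 and 0.375 FPKM in knockout. Its reads per library ran from 2 (exact Poisson 95% interval 0.24 to 7.22) to 27 (17.79 to 39.28), with high and low libraries in both groups. Alox15, which makes 12- and 15-hydroperoxides in eosinophils and resident macrophages (ENSMUSG00000018924; 70344152 to 70352031), was at 0.783, 0.494 and 0.441 FPKM in WT. In knockout it was at 0.743, 1.14 and 1.32 FPKM, with libraries 2 and 3 above every WT library and library 1 just under WT library 1. With the filter at a mean FPKM of 0.1, the log2 fold changes were 0.11 (adjusted p = 0.857) for Alox12 and 0.39 (adjusted p = 0.591) for Alox15 in limma.

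Ordered by level, Hpgd stood first in both groups, and its range did not overlap the next gene's. In WT it averaged 45.4 FPKM, followed by Ptgs1 at 10.2 and Ptger4 at 6.93, whose ranges overlapped. Ptges, Ptgs2, Ltc4s and Alox5ap followed between 1.57 and 1.80 FPKM, each overlapping the next. In knockout the genes from Ptgs1 (5.44 FPKM) through Ptges (5.26), Ptger4 (4.75) and Ptgs2 (3.83) to Alox5ap (3.60) overlapped one another in turn, and Ptges stood above Ptger4, in place of below it as in WT. Alox15, Alox5 and Alox12 were the lowest in both groups, at 0.192 to 0.573 FPKM in WT and 0.247 to 1.07 FPKM in knockout.

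The other genes of the pathway were read from a list that matched 60 rows in 7 roles, Dpep2 with 2 rows, of which 33 passed the filter. By limma 0 of the 33 were called in either direction, with 5 higher and 2 lower at an unadjusted p under 0.05. Voom also called 0. Groups did not overlap for 6 genes with knockout above and for 2 with knockout below. Among the 6, Ltb4r1, Fpr2 and Ggt5 had WT means under 1 FPKM and passed the filter through their knockout values. The 2, Ptgis and Tbxa2r, had knockout means under 1 FPKM and passed through their WT values. Over all genes tested, 6.14% were higher and 4.03% lower at an unadjusted p under 0.05 in limma. Groups did not overlap for 8.84% of them with knockout above and for 7.89% with knockout below. The median log2 fold change was 0.09, beside 0.04 over all genes tested. The plot of fold changes by role shows each tested gene of the list.

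**Figure D3:**
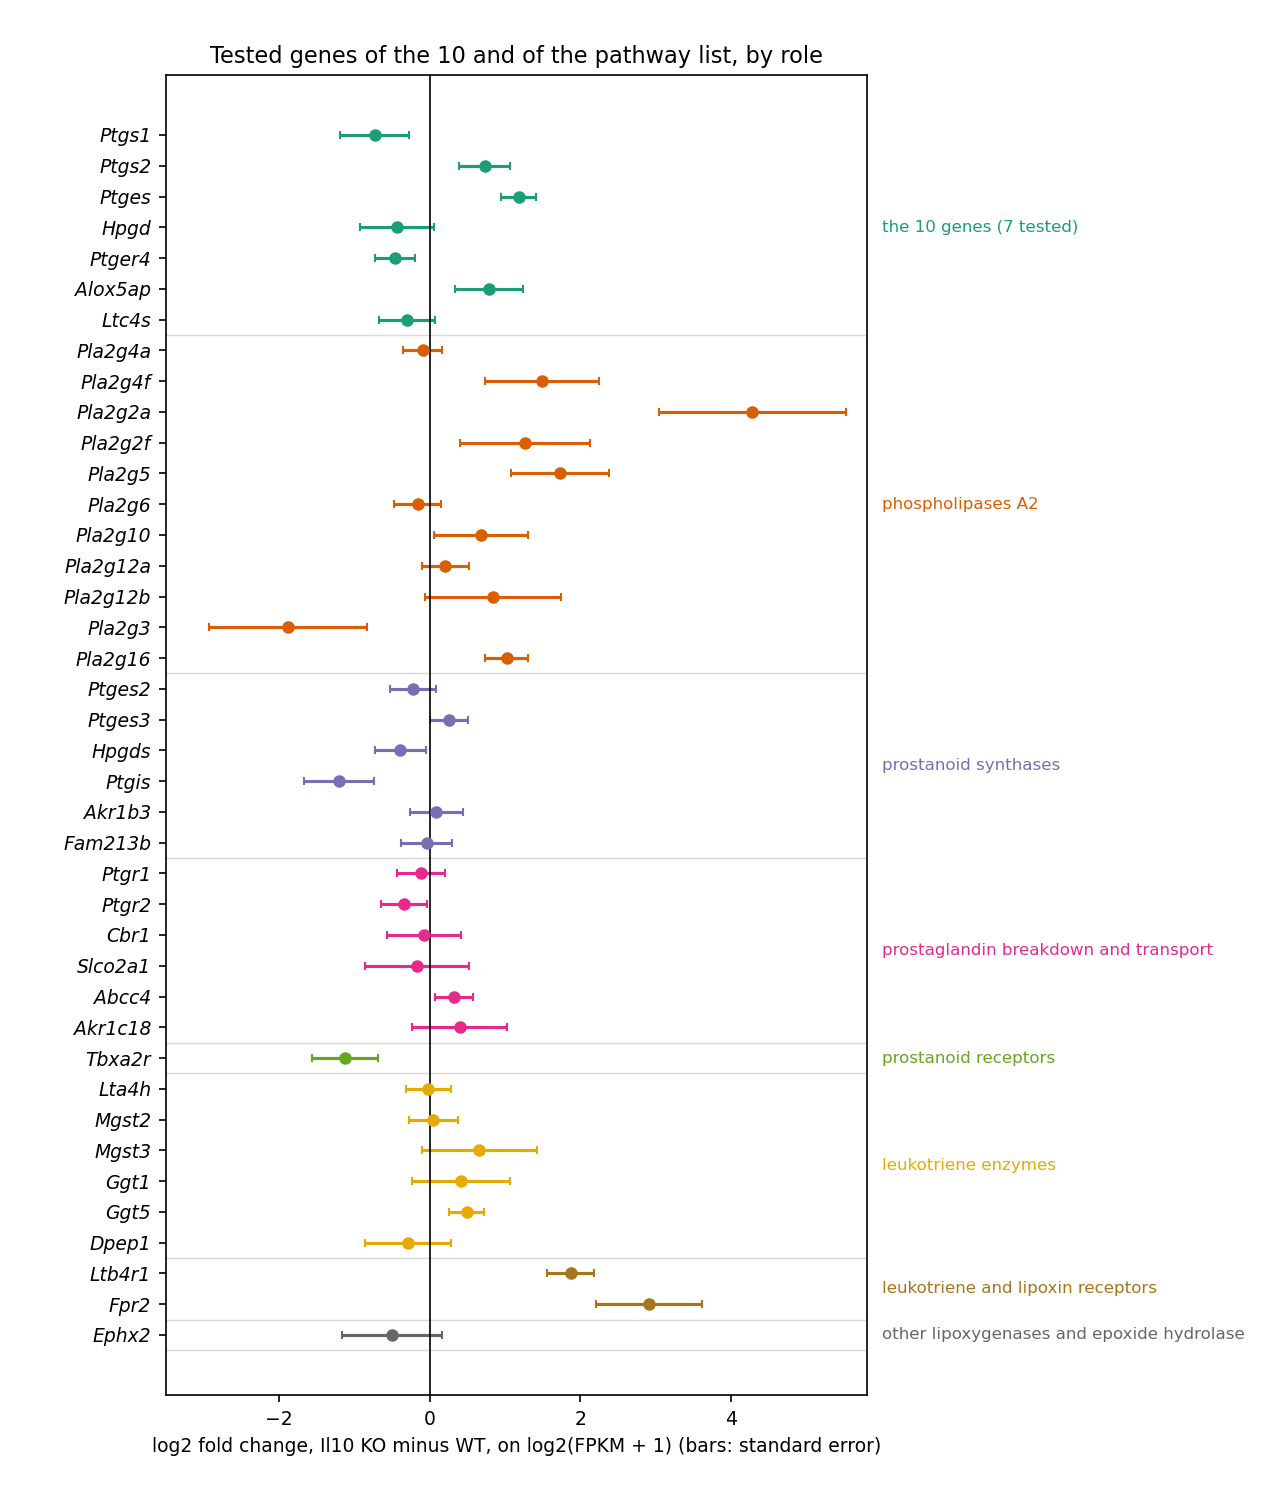
Log2 fold change from WT to knockout, computed with FPKM + 1 (x axis) for the 7 tested genes of the 10 and the 33 tested pathway genes (y axis), coloured by role, with bars of 1 standard error. Pla2g2a (4.28) and Fpr2 (2.91) lie farthest to the right, Pla2g3 (-1.88) farthest to the left, and no gene passed the adjusted threshold.

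Of 11 tested genes of the phospholipase A2 family, 8 had positive and 3 negative log2 fold changes (median 0.84), beside 6853 positive of 12668 over all genes tested. In limma 3 of the 8 were at an unadjusted p under 0.05, where 6.14% of all genes tested were higher, and 0 were called. Pla2g2a, a secreted phospholipase whose gene is known to be disrupted in C57BL/6 mice, was at 27.2, 0 and 18.6 FPKM in WT and at 89.6, 179 and 250 FPKM in knockout. The WT range, including a library with no read, lay below all 3 knockout libraries. Its log2 fold change was 4.28 (SE 1.24, adjusted p = 0.349 in limma), and 2.77 without WT library 2. Pla2g10, the next phospholipase by mean FPKM, was at 9.26 to 49.9 FPKM in WT and 31.8 to 51.1 FPKM in knockout (adjusted p = 0.759). Pla2g16, a phospholipase of adipocytes and other tissues, was at 8.83, 10.4 and 5.47 FPKM in WT and 20.3, 17.5 and 14.2 FPKM in knockout, with no overlap (log2 fold change 1.02, SE 0.29, adjusted p = 0.352). Pla2g3, at 50.2 FPKM in WT library 2 and 0.431 to 3.07 FPKM in the other libraries, leaned the other way. Pla2g4a, the cytosolic enzyme that feeds both branches, was at 2.61 to 4.11 and 2.29 to 3.94 FPKM, with a log2 fold change of -0.09 (SE 0.26).

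Among the other synthases and the breakdown and transport genes, 6 of each were tested and 0 called. Ptges3, a second prostaglandin E synthase also known as the Hsp90 cochaperone p23, was at 38.1 to 46.9 FPKM in WT and 47.6 to 51.5 FPKM in knockout. These groups did not overlap, but the log2 fold change was 0.26 (SE 0.25, adjusted p = 0.777). Fam213b, a prostamide and prostaglandin F synthase, had one of -0.04 (SE 0.34). Cbr1, a carbonyl reductase that acts on prostaglandin E2, had one of -0.08 (SE 0.49), and Slco2a1, the prostaglandin uptake transporter, one of -0.17 (SE 0.69). Slco2a1 was at 21.6 FPKM in WT library 2 and at 2.61 to 7.11 FPKM elsewhere.

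Ptgis, Tbxa2r and Ptger3, known from vessel wall and muscle, had lower values in knockout. Ptgis, which makes prostacyclin, was at 1.62, 1.59 and 6.21 FPKM in WT and at 1.05, 0.223 and 0.621 FPKM in knockout. Tbxa2r, the thromboxane receptor and the 1 receptor of 8 that passed the filter, was at 1.61, 1.58 and 6.05 FPKM against 1.11, 0.331 and 0.639 FPKM. Ptger3, the EP3 receptor, which did not pass the filter, was at 0.534, 0.839 and 2.42 FPKM against 0.432, 0.212 and 0.183 FPKM. All 3 genes had every knockout library below every WT library, with WT library 3 the highest, as for Ptgs1. The log2 fold changes of Ptgis and Tbxa2r were -1.20 (SE 0.46, adjusted p = 0.459) and -1.12 (SE 0.44, adjusted p = 0.472) in limma, and without WT library 3 they were -0.71 and -0.64. All 10 smooth muscle markers, Acta2 and Myh11 among them, had lower values in knockout. Their summed FPKM was 1268 to 8929 in WT and 177 to 1013 in knockout. Of 10 enteric neuron and glia markers 9 were lower in knockout too, as were 7 of 8 fibroblast markers. Both lists had their highest sum in WT library 3, at 257 and 262 FPKM. The part of muscle, nerve, glia or fibroblast content in the values of Ptgis, Tbxa2r, Ptger3 and Ptgs1 was not tested.

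Of the leukotriene enzymes 6 were tested and 0 called. Mgst3, a microsomal glutathione transferase, was at 111 to 857 FPKM in WT and 342 to 701 FPKM in knockout (log2 fold change 0.66, SE 0.76). Dpep1, a dipeptidase that trims leukotriene D4, was at 49.8 to 121 and 36.1 to 121 FPKM (log2 fold change -0.29, SE 0.57). Lta4h, the hydrolase that makes leukotriene B4, had a log2 fold change of -0.02 (SE 0.30). Ggt5, a transferase that acts on leukotriene C4, was the 1 enzyme whose groups did not overlap, with 0.806 to 1.01 FPKM in WT and 1.4 to 2.15 FPKM in knockout (log2 fold change 0.49, SE 0.23, adjusted p = 0.531).

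Ltb4r1 and Fpr2, receptors of leukotriene B4 and of lipoxin A4 and formyl peptides, had the lowest unadjusted p of the pathway list in limma. They were the 2 of 6 such receptors that passed the filter. Both did so through their knockout values, with WT means of 0.662 and 0.974 FPKM. Of the others, Ltb4r2 averaged 0.0618 FPKM in WT and 0.815 FPKM in knockout, without overlap. Means were lower in knockout for Cysltr1 (0.579 and 0.288 FPKM), Cysltr2 (1.07 and 0.742 FPKM) and Oxgr1 (0.0553 and 0 FPKM). Ltb4r1 was at 0.622, 1.14 and 0.222 FPKM in WT and at 5.57, 6.20 and 3.34 FPKM in knockout. Every knockout library was above every WT library. Ltb4r1 had a log2 fold change of 1.87 (SE 0.31), with an unadjusted p of 0.000581 and an adjusted p of 0.103 in limma, and 0.0184 with a weight per library. Fpr2 was at 2.15, 0.292 and 0.478 FPKM in WT and at 3.55, 23.8 and 21.5 FPKM in knockout (log2 fold change 2.91, SE 0.70, adjusted p = 0.261). Knockout library 1 was the lowest knockout library for Fpr2, Ptgs2, Alox5ap and Alox15 alike, while for Ltb4r1 it was knockout library 3. Among the remaining lipoxygenases, all below the filter, Alox12b had 0 reads in WT and 10 in knockout. The others went the other way, Alox8 with 7 and 2 reads, Alox12e with 9 and 0 and Aloxe3 with 10 and 3. The epoxide hydrolase gene Ephx2 differed by -0.50 on the log2 scale (SE 0.66, adjusted p = 0.845 in limma).

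Markers of cells known to carry these genes were summed in each library. Of 12 neutrophil markers 11 had higher values in knockout, and their summed FPKM was 1.74 to 126 in WT and 954 to 1886 in knockout. S100a9, Cxcr2, Mmp8, Ngp, Retnlg, Elane and Mpo had no read in WT, and 124 of the 126 FPKM of WT library 1 came from Ly6g, which has close relatives in the genome. Neutrophils carry Alox5ap, Ltb4r1 and Fpr2, and the part of neutrophil content in their values was not tested. Alox5, the enzyme that Alox5ap helps, averaged 0.334 FPKM in WT and 0.247 FPKM in knockout, with overlapping groups. With 7 to 27 Alox5 reads per library, these values have no bearing on neutrophil content. Knockout library 1, where Alox5ap, Fpr2 and Ptgs2 were lowest of the 3, had the highest neutrophil sum, 1886 FPKM, of which S100a8 alone made 1153 FPKM. Ltb4r1 was not lowest there, with 5.57 FPKM in knockout library 1 and 3.34 FPKM in knockout library 3. By the mean log2(FPKM + 1) of the same 12 markers the order turned around, with 2.92 in knockout library 1 against 3.62 and 3.39 in knockout libraries 2 and 3. Of the 12 markers 8 were lowest of the 3 in knockout library 1, and 2, S100a8 and Mpo, were highest there. The 12 macrophage and monocyte markers summed to 114 to 279 FPKM in WT and 193 to 323 FPKM in knockout, with 8 of 12 higher.

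For the genes of rarer cells the markers were near the limit of these libraries. Tuft cells are an epithelial source of Ptgs1 and of the leukotriene enzymes. Their 10 markers summed to 4.20, 5.31 and 13.2 FPKM in WT and 3.19 to 4.93 FPKM in knockout, with 8 lower and Il25 without a read in any library. Eosinophil markers summed to 0.821 to 1.78 and 2.73 to 3.24 FPKM, with Epx, Prg3, Ear1 and Ear6 without a read in all 6 libraries. Mast cell markers ran from 3.22 to 16.8 FPKM in WT and 5.06 to 27.6 FPKM in knockout, and Cpa3 had no read in WT. Single genes set the highest sums, with Kit at 16.6 FPKM in WT library 3 and Mcpt1 at 15.2 FPKM in knockout library 1. Platelet markers summed to 2.84 to 17.9 and 6.56 to 19.1 FPKM, nearly all from Pf4, and Gp9 and Gp1bb had no read in WT. Their part in Ltc4s, Alox15 and Alox12 was not tested.

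**Figure D4:**
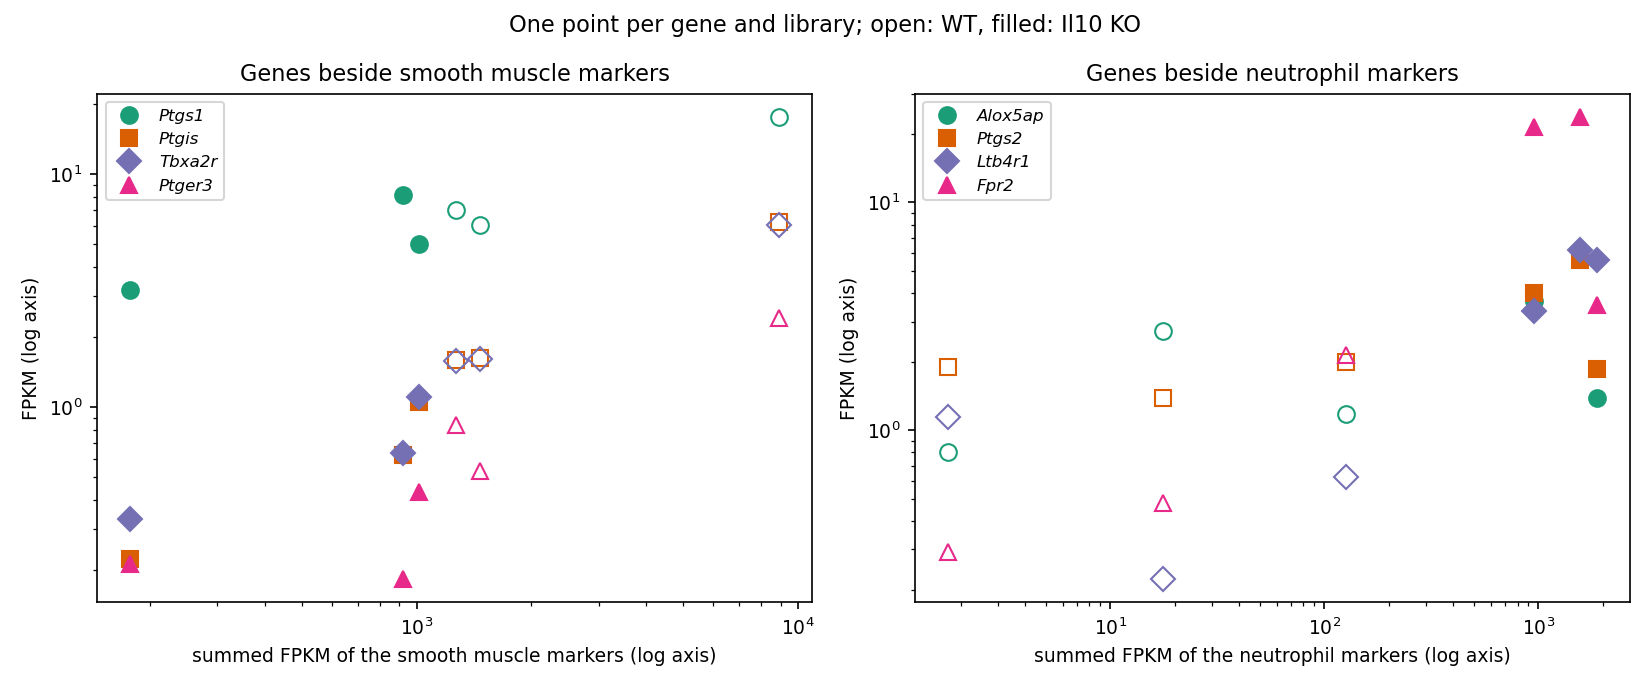
Left, FPKM of Ptgs1, Ptgis, Tbxa2r and Ptger3 (y axis, log scale) against the summed FPKM of 10 smooth muscle markers (x axis, log scale). Right, FPKM of Alox5ap, Ptgs2, Ltb4r1 and Fpr2 against the summed FPKM of 12 neutrophil markers, both on log axes. Each point is 1 gene in 1 library, open for WT and filled for knockout. WT library 3 is the rightmost point on the left, at 8929 FPKM, and there each gene is at its highest. Knockout library 1 is the rightmost on the right, at 1886 FPKM, a place set by S100a8 (1153 FPKM), and by mean log2 it would be the lowest of the 3 knockout libraries. There Ptgs2 and Alox5ap lie within their WT ranges, while Ltb4r1 (5.57 FPKM) and Fpr2 (3.55 FPKM) lie above theirs.

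The genes whose profile over the 6 libraries was most like that of each tested gene were found by the root mean square difference of centred log2(FPKM + 1) values among 11417 candidates. Sh2d6, a tuft cell marker of the list above, was the most like Ptgs1 (0.104), followed by Pfkm, muscle phosphofructokinase (0.136). For Ptges they were Sh3bgrl3 (0.123) and Tnfsf13b, the B cell survival factor BAFF (0.145). For Ptgs2 they were Srd5a1 (0.11) and N4bp2l1 (0.121). For Hpgd they were the interferon-induced gene Samd9l (0.129) and Vsig10 (0.154), for Alox5ap Ret (0.166) and Cyr61 (0.185), for Ptger4 Adnp2 (0.088) and Gpt2 (0.093), and for Ltc4s Rab10os (0.112) and Prrt1 (0.12). These distances compare 6 values per gene and share the libraries and their scaling. Between 5 (Alox5ap) and 101 (Ptger4) candidates lay within 0.2 of a gene.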

How the data were processed

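The authors deposited 1 table of FPKM values per gene and library, and per the file headers each row also holds a position and a length. Bowtie 0.12.2, hg38 and mm8 are listed, with no role, per the submitters' processing notes. No counter or strand setting is given in the sources used here. Coordinates of all 10 genes equal those of GENCODE M21, so they are given as GRCm38. Reads were recovered by multiplying FPKM by length and dividing by each library's smallest step; 100% of values above 0 came out whole (tolerance 0.01). Libraries of a group differed beyond counting noise (chi-square per gene 61.6 or more where 11 or more reads were present). Intervals on reads are for counting error alone.

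Titles gave the groups and replicate numbers. The test was limma 3.58.1 in R 4.3.3 (lmFit, eBayes with trend, pseudocount 1, mean FPKM of at least 1), tested on simulated data. Python 3.11.15, numpy 2.4.6, pandas 2.3.3, scipy 1.17.1 and matplotlib 3.10.9 served for the rest. The 10 genes, lists, ratios and alternatives were chosen with earlier results of these data known. Named pathway genes were the 2 of highest mean FPKM per role, and for likeness the 2 nearest genes, leaving out pathway and predicted genes. Ptgis, Pla2g16, Pla2g3, Pla2g4a, Lta4h, Ggt5, Ltb4r2, Cysltr1, Cysltr2, Oxgr1, Alox8, Alox12e, Aloxe3 and the single marker genes were chosen after values were seen. So were the promoters and the weighted fit's values. The alternatives were pseudocounts, filters, TPM, quantile normalization, eBayes settings, library weights, a replicate block, voom and each library left out.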

Additional observations from a re-analysis of the deposited data

How the results depend on the processing

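Over the 18 alternatives the count of the 10 genes called by limma was 0 in 17 and 1, Ptges, with a weight per library (log2 fold change 0.96). The count of pathway genes was 0 in 17 and 1, Ltb4r1, with those weights, which were 2.76, 0.198 and 0.465 for WT libraries 1 to 3. No log2 fold change of the 10 genes and none of the 3 ratios turned its sign in the alternatives that gave a value. Over all genes, 23 were called higher and 0 lower. Those called higher numbered 9 with a pseudocount of 0.01, 4 with no filter, 44 with TPM, 237 with library weights, 2 with voom, and 4 to 27 with a library left out (4 without WT 3 or knockout 2, 7 without knockout 3, 12 without WT 1). Those called lower numbered 1 at a mean FPKM of at least 5, 2 with TPM, 1 with quantile normalization, 94 with weights, and 0 to 3 with a library left out. TPM moved the median of all genes by 0.11, and the cause of these shifts in number was not tested. With a replicate block 7 genes were called higher and 0 of the 10 were called. The deviations of same-numbered libraries correlated at -0.15, 0.18 and 0.40, and WT library 1 correlated best with another number, so the numbers are not taken as pairs. Alox5, Alox12 and Alox15, below the filter, have no value under quantile normalization, voom, the block, the weights, the eBayes settings or a mean FPKM of at least 5. Their depth, 2 to 53 reads per library, limits what can be seen of them.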
